A study of Mus musculus with 6 samples.

Results

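The genes described here are 6 fibroblast growth factor (FGF) ligand genes, Fgf4, Fgf5, Fgf8, Fgf10, Fgf15 and Fgf17, and the 4 FGF receptor genes Fgfr1, Fgfr2, Fgfr3 and Fgfr4. They were chosen by name, as all probe sets of the Affymetrix mouse array that carry 1 of these symbols and no other. This gave 24 of the 45037 probe sets tested, 11 for ligands and 13 for receptors, and 10 of 18193 named genes. RNA came from E14TG2a cells, a mouse embryonic stem (ES) cell line that is kept undifferentiated by leukaemia inhibitory factor (LIF). Undifferentiated cells (3 samples) were kept in LIF (1000 units/ml) and gated for absence of surface 5T4, an oncofoetal glycoprotein. Differentiating cells (3 samples) had LIF withheld for 3 days and were gated for presence of 5T4. Flasks were coated with gelatin, no feeder cells are named in the sources used here, and the medium held foetal calf serum according to the methods, while the labels name serum replacement as another option. Withdrawal of LIF and the 5T4 sort differ together and cannot be told apart, and all samples come from 1 cell line. The sources do not say whether the numbered replicates were separate cultures, so p-values measure only the spread between these samples, which may be technical. The methods describe the samples as varying little within replicates and do not say whether they were selected for that.

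FGF ligands are secreted proteins that bind receptor tyrosine kinases together with heparan sulfate. The activated receptor signals through adaptor proteins to Ras, Raf, MEK and ERK, and ERK signalling induces ETS factors and its own inhibitors. In ES cells FGF4 is the main autocrine ligand, and FGF-ERK signalling allows cells to leave the naive state. Fgf5 is the classical transcript of the epiblast after implantation, Fgf8 is expressed in late epiblast and primitive streak, and FGFR1 is regarded as the main receptor of the naive epiblast.

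Values are log2 values that the authors made with RMA, a method of background correction, normalization across arrays and summary over the probes of a set. A log2 difference of 1 is a change of 2-fold. No detection calls accompany them, which leaves low values open to background, and the level of one probe set cannot be set against that of another. The median RMA value per array lay between 5.54 and 5.65. Of 10 naive pluripotency markers 4 were lower in differentiating cells at an adjusted p under 0.1, and of 8 primed epiblast markers 2 were higher. Differentiating replicate 1 kept the highest naive markers of its group, with a mean value over the list of 8.77 against 7.47 and 6.68. Undifferentiated replicate 2 had a summed level (linear scale) of 6 trophectoderm markers, including Krt8 and Krt18, of 12825, against 992 and 1905 in its group. Krt8 and Krt18 made up most of that sum (12.54 and 12.66 on the log2 scale in that array). Krt7, Cdx2, Hand1 and Elf5 were there at 8.02, 5.69, 5.63 and 4.29, so the sum is mainly a keratin level. In undifferentiated replicates 1 and 3, Krt7 was at 6.44 and 6.07 and Cdx2 at 4.96 and 4.91. Hand1 was at 5.41 and 5.42 and Elf5 at 4.20 and 4.30 in those arrays. Tpbg, the gene of 5T4, had a log2 fold change of 1.27 at its brightest probe set and did not pass (adjusted p = 0.22), with undifferentiated replicate 2 (6.76) above differentiating replicate 1 (6.71). At its other 2 probe sets the groups did not overlap, with log2 fold changes of 1.39 (adjusted p = 0.118) and 0.38 (adjusted p = 0.237). In bulk RNA, a change in the number of expressing cells and a change per cell cannot be told apart.

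In differentiating cells Fgf5 was higher at both of its probe sets and Fgf4 was lower at 1 of its 4, while no receptor probe set passed the test. A probe set passed at an adjusted p under 0.1 from limma, with Benjamini-Hochberg adjustment over all 45037 probe sets. Of the 24 FGF probe sets 3 passed, 2 higher and 1 lower, where 1.6% of all probe sets passed (0.573% higher and 1.03% lower). All 3 also reached a log2 fold change of 1, as did 0.941% of all probe sets. At 8 of the 24 probe sets (33.3%), 3 higher and 5 lower, every array of one group lay beyond every array of the other, against 20.3% of all probe sets (10% higher and 10.3% lower). All 8 belong to 4 ligand genes, Fgf4, Fgf5, Fgf8 and Fgf17, and probe sets of 1 gene are not independent. Counted by gene at the brightest probe set, this held for 4 of 10 (40%), against 23.5% of all genes. At the brightest probe set of each gene, 1 of 10 genes passed, Fgf5, where 2.25% of all 18193 genes passed. The median log2 fold change of the 24 probe sets was 0.01, and that of all probe sets was 0.03. No FGF probe set passed without differentiating replicate 2, without differentiating replicate 3 or without undifferentiated replicate 3. Of the 24, 6 to 8 then had an unadjusted p under 0.05 from limma. With all 6 arrays 7 of the 24 had one, as had 6176 of all 45037 probe sets. The count over all probe sets after an omission is not given here.

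**Figure D1:**
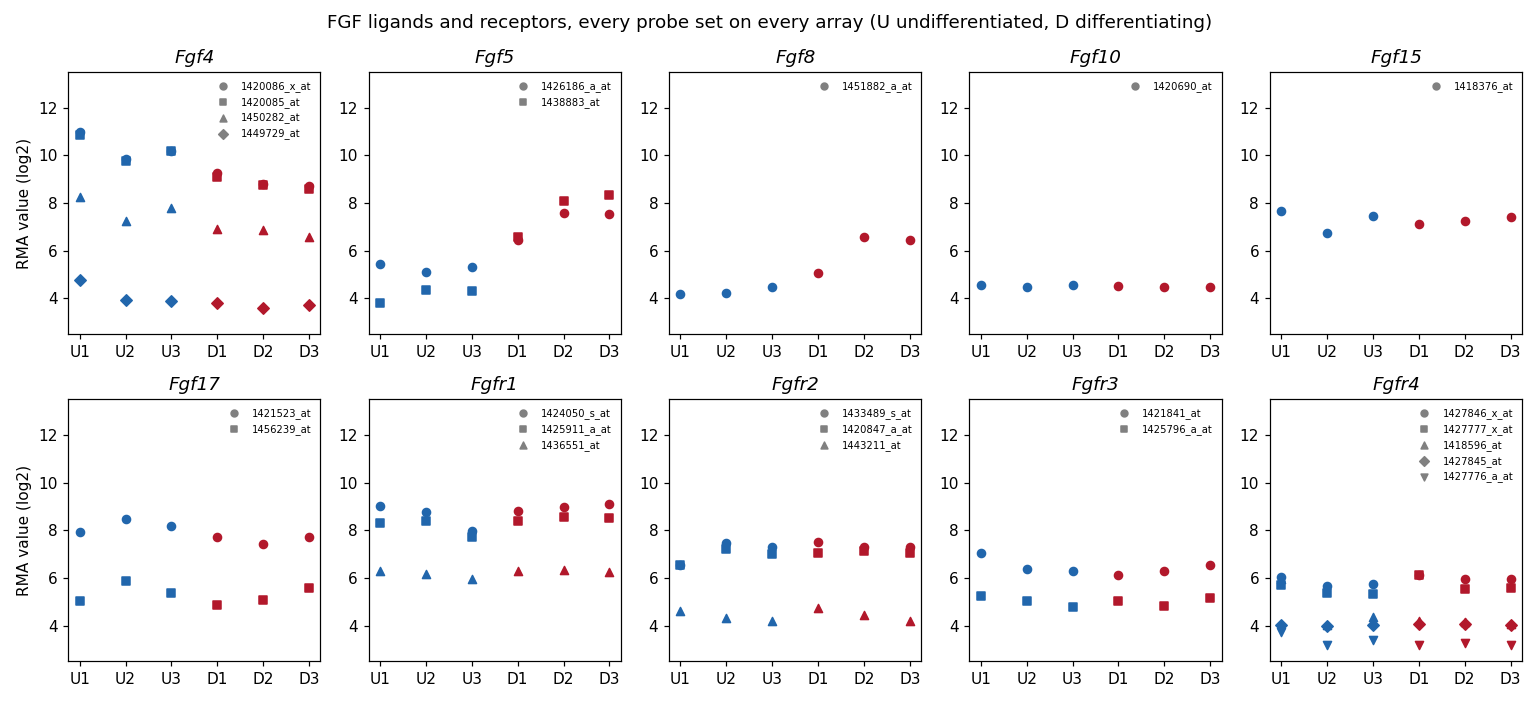
RMA values (log2, vertical axis, the same scale in each panel) of all 24 probe sets of the 10 genes on each array (horizontal axis), undifferentiated 5T4-negative in blue (U1 to U3) and differentiating 5T4-positive in red (D1 to D3), with a marker shape for each probe set. Fgf5 and Fgf8 are higher on every red than on every blue array and Fgf4 is lower at each of its 4 probe sets, whereas the groups overlap at every receptor probe set.

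Fgf4 has 4 probe sets. At 1420085_at the value was 10.84, 9.77 and 10.20 in undifferentiated replicates 1 to 3 and 9.10, 8.74 and 8.57 in differentiating replicates 1 to 3. Every differentiating array lay below every undifferentiated array, and undifferentiated replicate 1 was the highest. The mean fell from 10.27 ± 0.54 (SD, n = 3) to 8.80 ± 0.27 (SD, n = 3), which is 2.77-fold lower (log2 fold change -1.47, standard error 0.28, 95% interval -2.14 to -0.80, adjusted p = 0.0949 from limma). The brightest probe set, 1420086_x_at, had 10.99, 9.83 and 10.20 in undifferentiated and 9.27, 8.78 and 8.73 in differentiating cells. Its log2 fold change was close to that of 1420085_at (-1.41, standard error 0.31) but did not pass (adjusted p = 0.117). Both are annotated from the same sequence record, so they are not independent measures of the gene. The probe set 1450282_at, from another record, had 8.26, 7.25 and 7.80 in undifferentiated and 6.90, 6.88 and 6.56 in differentiating cells (log2 fold change -0.99, adjusted p = 0.165). The dimmest, 1449729_at (percentile 21.2 of probe sets by mean value), ranged from 3.90 to 4.79 and from 3.58 to 3.80 (log2 fold change -0.51, adjusted p = 0.44). Undifferentiated replicate 1 gave the highest value at each of the 4 probe sets. The groups did not overlap at any of them, each with a two-sided exact permutation p of 0.1, the floor for 3 arrays a side. The call at 1420085_at was lost after a second quantile normalization (adjusted p = 0.119), and without differentiating replicate 1 (0.111), 2 (0.374) or 3 (0.326) or undifferentiated replicate 3 (0.332), with log2 fold changes from -1.72 to -1.18 over all 6 omissions.

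Fgf5 has 2 probe sets, and both passed. At 1438883_at the value was 3.81, 4.34 and 4.29 in undifferentiated replicates 1 to 3 and 6.57, 8.07 and 8.32 in differentiating replicates 1 to 3. The lowest differentiating array, replicate 1, was still far above the highest undifferentiated array. The mean rose from 4.15 ± 0.29 (SD, n = 3) to 7.65 ± 0.94 (SD, n = 3), an 11.3-fold increase (log2 fold change 3.50, standard error 0.44, 95% interval 2.45 to 4.56, adjusted p = 0.0468 from limma). The undifferentiated values here may lie at background, as array lower quartiles in that group were 4.07 to 4.10, in which case its fold understates the change. At the brightest probe set, 1426186_a_at, the value was 5.44, 5.09 and 5.30 in undifferentiated and 6.43, 7.59 and 7.56 in differentiating cells. Here, too, differentiating replicate 1 was the lowest of its group and the groups did not overlap. The log2 fold change was 1.92, or 3.78-fold (standard error 0.32, 95% interval 1.17 to 2.66, adjusted p = 0.0734 from limma). The log2 fold change at 1426186_a_at minus that at 1438883_at was -1.59, and the within-array difference between the probe sets separated the groups (two-sided exact permutation p = 0.1, again the floor, adjusted p = 0.28 over 14 such pairs). Of these 14 pairs of probe sets of 1 gene, 5 reached that floor, including 2 of Fgf4 and 2 of Fgfr4. Which of the probe sets follows the transcript more closely was not tested. Without differentiating replicate 1 the log2 fold changes were 4.04 and 2.30 (adjusted p = 0.0185 for each). Omission of differentiating replicate 2 or 3, or of undifferentiated replicate 3, left neither past the threshold (adjusted p from 0.206 to 0.318).

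The promoter windows of Fgf4 and Fgf5 are given because these are the members with a probe set that passed, 1 of 4 for Fgf4 (lower) and both for Fgf5 (higher). They are 300 bases of RefSeq sequence of build GRCm38.p6, from 250 bases before to 50 bases after the annotated start of the gene, and 6 of the 10 genes had such a window. The array values name no genome build, so the windows place the genes and not the probes. The window of Fgf4 is chr7:144861136-144861435 and that of Fgf5 is chr5:98253934-98254233, each on the plus strand. Capitals mark matches to 7 motifs searched on both strands. These were the TATA box in the forms TATAAA and, as a variant of it, TATATA, then the GC box written GGGCGG, the CCAAT box, the E-box written CACGTG, the octamer of POU factors written ATGCAAAT, and the STAT consensus written TTCNNNGAA.
Fgf4: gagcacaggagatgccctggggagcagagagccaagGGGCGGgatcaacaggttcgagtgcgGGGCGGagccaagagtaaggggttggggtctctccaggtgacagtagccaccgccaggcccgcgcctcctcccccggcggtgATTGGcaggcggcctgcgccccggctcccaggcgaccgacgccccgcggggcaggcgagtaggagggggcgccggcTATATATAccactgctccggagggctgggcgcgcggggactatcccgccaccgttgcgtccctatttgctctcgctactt
Fgf5: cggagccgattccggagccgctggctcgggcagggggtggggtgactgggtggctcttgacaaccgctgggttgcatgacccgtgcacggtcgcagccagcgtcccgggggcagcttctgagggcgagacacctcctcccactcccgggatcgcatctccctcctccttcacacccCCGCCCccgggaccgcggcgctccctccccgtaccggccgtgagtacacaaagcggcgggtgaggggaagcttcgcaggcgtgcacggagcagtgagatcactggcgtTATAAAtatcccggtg
The Fgf4 window holds TATATA at bases -30 and -28 from the start, overlapping copies that print as 1 run, the GC box at -214 and -188 and CCAAT on the minus strand at -106. The Fgf5 window holds TATAAA at base 35 after the annotated start and the GC box on the minus strand at -74. Of 32851 windows of this length, 5.67% hold TATATA, 13.6% TATAAA, 35.7% the GC box and 37.4% CCAAT. Neither window holds the E-box, the octamer or the STAT consensus, which stand in 7.15%, 1.74% and 8.3% of windows. Both windows are rich in G and C (69.7% and 68.3%, median over all windows 52.7%) and in CpG (28 and 29, median 7). A match is a description of the letters and not a binding site.

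Fgf8 has 1 probe set, with 4.20, 4.25 and 4.47 in undifferentiated replicates 1 to 3 and 5.07, 6.59 and 6.45 in differentiating replicates 1 to 3. All differentiating arrays were above all undifferentiated arrays, and replicate 1 was again the lowest of the differentiating group. The undifferentiated mean was 4.31 ± 0.15 (SD, n = 3) and the differentiating mean 6.04 ± 0.84 (SD, n = 3), a log2 fold change of 1.73 (standard error 0.39, 95% interval 0.82 to 2.65) that did not pass (adjusted p = 0.122 from limma). Without differentiating replicate 1 it was 2.22 and passed (adjusted p = 0.0185), and over all alternatives the adjusted p ranged from 0.00364 to 0.404. By mean value it stands at percentile 43.9 of probe sets, so its undifferentiated values may lie at background, in which case the fold understates the change. Fgf8 is also known from the primitive streak. Of 5 measured markers of primitive streak and mesoderm, among them Mixl1 and Eomes, none passed. Their summed level (linear scale) was 211 to 231 in differentiating and 198 to 230 in undifferentiated cells. Their mean values stood in percentiles 10.3 (Gsc) to 60.6 (Eomes) of probe sets. The marker T, also on that list, was not matched to a single symbol and was not measured. Which cells express Fgf8 was not tested.

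Fgf17 and Fgf8 belong to 1 subfamily of ligands and share a preference for the same receptor isoforms. The brighter probe set of Fgf17 had 7.91, 8.45 and 8.18 in undifferentiated and 7.71, 7.43 and 7.74 in differentiating cells. Each differentiating array was below each undifferentiated array, the opposite of Fgf8, but the log2 fold change of -0.55 (standard error 0.17, 95% interval -0.96 to -0.15) did not pass (adjusted p = 0.229). The dimmer Fgf17 probe set overlapped between the groups (5.02 to 5.86 and 4.85 to 5.56, log2 fold change -0.26, adjusted p = 0.723). Fgf15, the mouse counterpart of human FGF19 and known as a gut hormone that restrains bile acid synthesis, had 7.68, 6.74 and 7.45 in undifferentiated and 7.12, 7.26 and 7.41 in differentiating cells. The differentiating arrays lay within the range of the undifferentiated ones, and the log2 fold change was -0.03 (95% interval -0.61 to 0.55, adjusted p = 0.974). Fgf10, a mesenchymal ligand of limb and lung buds, was 4.46 to 4.56 in undifferentiated and 4.47 to 4.51 in differentiating cells. The difference was -0.04 on the log2 scale (95% interval -0.28 to 0.20, adjusted p = 0.912), at a mean value in percentile 32.7 of probe sets.

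**Figure D2:**
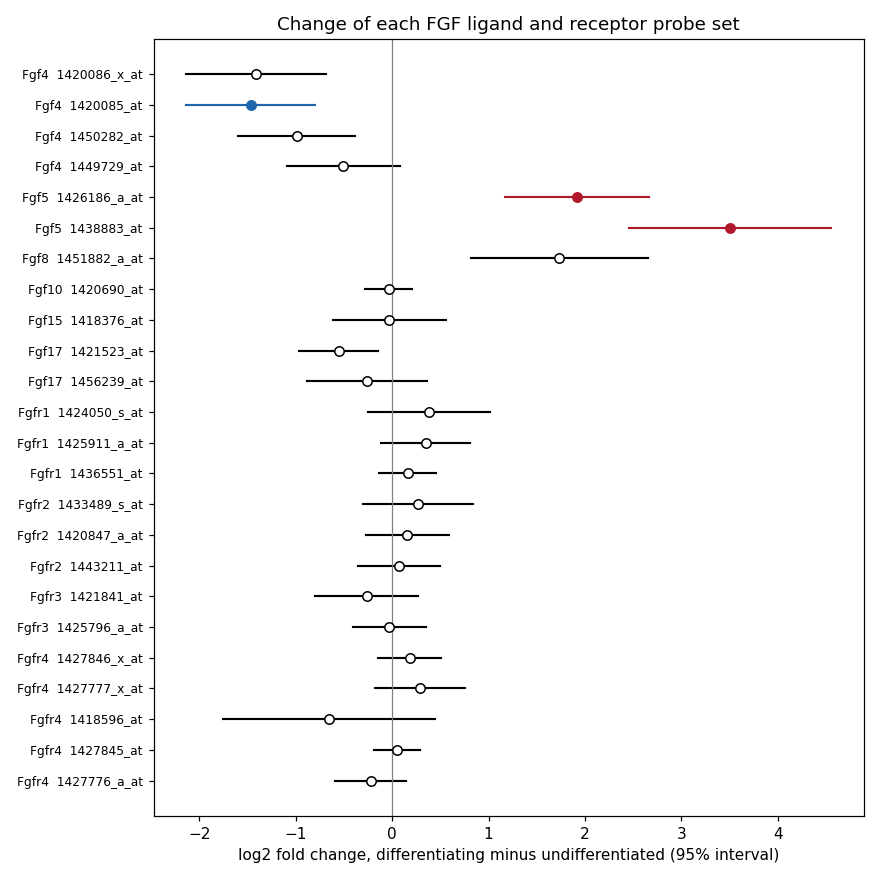
Log2 fold change (horizontal axis, differentiating minus undifferentiated) of each of the 24 probe sets, with bars for the 95% interval from limma (n = 3 arrays per group); filled red is higher and filled blue lower at an adjusted p under 0.1, and open points did not pass. The 2 Fgf5 probe sets and 1 Fgf4 probe set are filled, and the interval of every receptor probe set includes 0.

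None of the 13 receptor probe sets passed, and none had an unadjusted p under 0.05. Their log2 fold changes ran from -0.66 to 0.39 with a median of 0.16, and the adjusted p from 0.504 to 0.954. The arrays of the groups overlapped at every one of them. Fgfr1 was higher on average at each of its 3 probe sets (log2 fold changes 0.39, 0.35 and 0.16) without passing. At the brightest it was 9.01, 8.76 and 7.96 in undifferentiated and 8.83, 8.96 and 9.10 in differentiating cells. Undifferentiated replicate 3 was the lowest array at all 3 probe sets, and without it the log2 fold change at the brightest was 0.08. The 95% interval with all arrays was -0.25 to 1.02.

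Fgfr2, which marks the cells that become primitive endoderm in the blastocyst, was 6.55, 7.48 and 7.29 in undifferentiated and 7.51, 7.31 and 7.31 in differentiating cells at its brightest probe set. Undifferentiated replicate 1 was lowest and the other 5 arrays lay between 7.29 and 7.51. The log2 fold change was 0.27 (95% interval -0.30 to 0.84, adjusted p = 0.69), and -0.0089 without undifferentiated replicate 1. Of 8 markers of primitive and visceral endoderm none passed, and their summed level (linear scale) was 271 to 291 in differentiating and 247 to 275 in undifferentiated cells. Gata4, Gata6 and Sox17, which define that lineage, had log2 fold changes of -0.03, 0.07 and 0.11. Pdgfra, on the same list, had 0.53 (adjusted p = 0.152 from limma). It was the only marker of the 8 at which the groups did not overlap (12.5%, against 23.5% of all genes).

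Fgfr3, a receptor known for its role in cartilage, was 7.06, 6.37 and 6.30 in undifferentiated and 6.12, 6.28 and 6.53 in differentiating cells at its brightest probe set. The groups overlapped, and the log2 fold change was -0.27 (95% interval -0.80 to 0.27, adjusted p = 0.671), and -0.0258 without undifferentiated replicate 1. Fgfr4, the liver receptor of Fgf15, has 5 probe sets of unequal direction. The brightest had a log2 fold change of 0.18 (6.03, 5.68 and 5.73 in undifferentiated, 6.11, 5.94 and 5.94 in differentiating cells, adjusted p = 0.625). The probe set 1418596_at had -0.66, where undifferentiated replicate 1 was at 5.97 against 4.04 to 4.36 on the other 5 arrays. Without that array its log2 fold change was -0.07. The other 3 Fgfr4 probe sets had log2 fold changes from -0.22 to 0.29, and the dimmest had a mean value in percentile 6.3 of probe sets.

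The arrays of a group did not vary alike. In the undifferentiated group, replicate 1 was the highest array of all 6 at the 4 Fgf4 probe sets, for Fgf10 and Fgf15, at both Fgfr3 probe sets and at 2 Fgfr4 probe sets, and the lowest at the brightest 2 Fgfr2 probe sets, for Fgf8 and at 1438883_at of Fgf5. In the differentiating group, replicate 1 was the lowest for Fgf5 and Fgf8 and the highest at the 4 Fgf4 probe sets. That replicate also had the highest naive marker mean of its group, given earlier, and the lowest primed epiblast mean (9.02 against 9.48 and 9.57), and its summed trophectoderm level was 11699 against 5837 and 6856. Krt8 and Krt18 (12.49 each on the log2 scale) again made up most of that sum. The part of these markers in the FGF values was not tested. Fibroblast markers (0 of 7 passed) summed to 492 to 1101 in differentiating and 355 to 744 in undifferentiated cells (linear scale), again highest in differentiating replicate 1 and undifferentiated replicate 2. Neuroectoderm markers (0 of 5 passed) summed to 640 to 816 and 443 to 600. Their directions differed, with log2 fold changes of 1.18 for Nes, -1.13 for Pax6, 0.05 for Sox1, 0.04 for Pax3 and 0.11 for Zic1. The mean log2 values of that list overlapped (5.46, 6.13 and 6.33 in differentiating and 5.72, 6.06 and 5.99 in undifferentiated replicates 1 to 3).

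**Figure D3:**
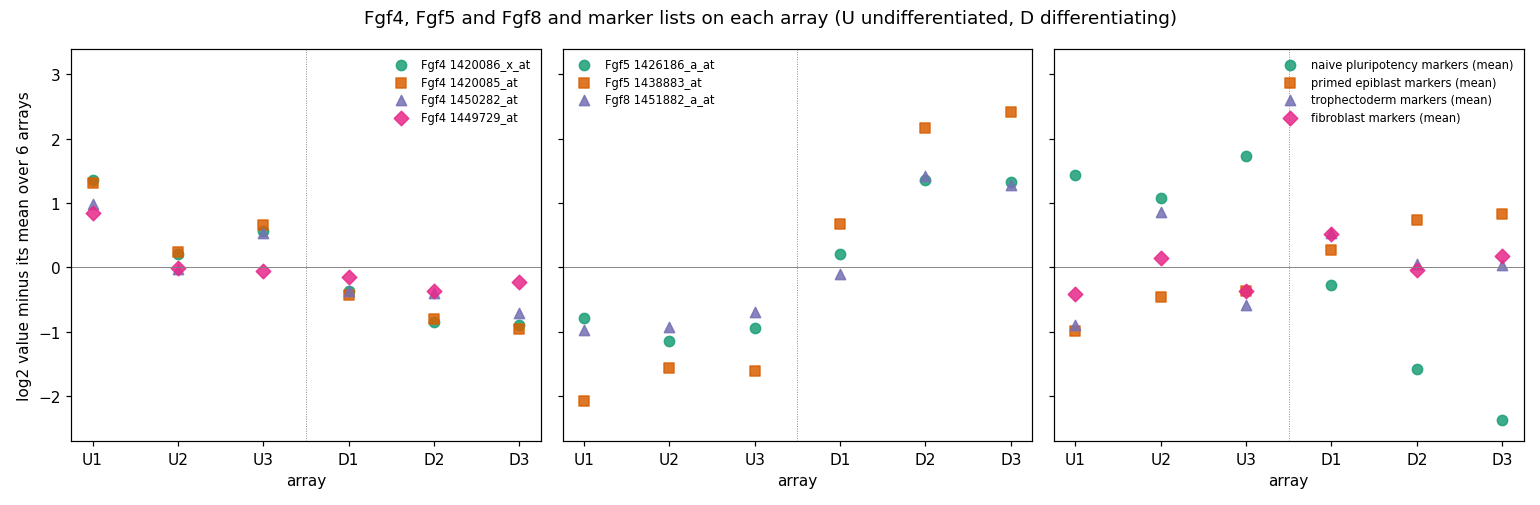
Log2 value minus its mean over the 6 arrays (vertical axis) on each array (horizontal axis, U undifferentiated, D differentiating) for the 4 Fgf4 probe sets (left), for Fgf5 and Fgf8 (middle) and for the mean of each of 4 marker lists (right); each point is 1 array. Differentiating replicate 1 (D1) lies nearest to the undifferentiated arrays for Fgf5, Fgf8 and the naive and primed markers, and undifferentiated replicate 2 (U2) has the highest trophectoderm mean of all arrays.

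The genes whose pattern over the 6 arrays was most like that of Fgf5, by the root mean square difference of centred values among 18192 other genes, were Armcx3 (0.161 log2 units), Cyp2j13 (0.187) and Fgf8 (0.197). Those most like Fgf4 were Slc25a20 (0.0971), Sntb2 (0.112) and Mmp11 (0.113). All arrays are shared by these genes, and the likeness is a description at the brightest probe sets. The difference between the groups enters this measure, with log2 fold changes of 1.73 for Fgf8 and 1.92 for Fgf5 at 1426186_a_at. The likeness is therefore no further test of Fgf8, which did not pass. It was not taken at the Fgf5 probe set 1438883_at, where the log2 fold change was 3.50.

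Outside the 10 members, 67 genes of FGF signalling were listed and 59 were measured under a single symbol. At the brightest probe set 3 passed, 1 higher and 2 lower, where 2.25% of all genes passed (0.797% higher and 1.45% lower). Their median log2 fold change was 0.06, against 0.02 over all genes. None of the 16 other ligand genes passed, and the largest changes were those of Fgf1 (-1.19, adjusted p = 0.157), a ligand of all FGF receptors, and Fgf13 (1.00, adjusted p = 0.33), an intracellular family member that is not secreted. Fgf1 was 5.29 to 6.54 in undifferentiated and 4.55 to 4.67 in differentiating cells, which do not overlap. Fgf2, another ligand used in culture of primed cells, had a mean value in percentile 4.9 of probe sets (log2 fold change -0.04, adjusted p = 0.925) and was singled out after its value was seen.

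Of 9 coreceptors and modulators, Il17rd rose. It encodes Sef, a membrane inhibitor of FGF signalling, and was 8.98, 9.44 and 9.27 in undifferentiated and 10.08, 10.60 and 10.28 in differentiating cells. The groups did not overlap, and the log2 fold change was 1.09 (2.12-fold, standard error 0.18, adjusted p = 0.0773 from limma). Fgfbp1, which encodes a carrier that releases FGFs from the matrix, had the largest log2 fold change of the list (2.09) but did not pass (adjusted p = 0.359). Its undifferentiated arrays ranged from 5.15 in replicate 1 to 8.96 in replicate 2, while the differentiating arrays lay between 9.02 and 9.78. Fgfbp3, a related carrier, was at 1.01 on the same scale (adjusted p = 0.321).

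Of 10 measured genes of heparan sulfate synthesis and editing none passed, and the largest changes were those of the sulfotransferase gene Hs6st2 (1.25, adjusted p = 0.571) and the sulfatase gene Sulf1 (0.71, adjusted p = 0.375). None of 8 receptor adaptors passed. Grb2, which links receptors to the Ras exchange factors, stood at -0.51 (9.22, 9.10 and 9.04 in undifferentiated, 8.70, 8.53 and 8.58 in differentiating cells, adjusted p = 0.121), and the Ras exchange factor gene Sos2 had 0.88 (adjusted p = 0.283). None of 5 measured genes of the Ras-Raf-MEK-ERK cascade passed. The largest were 0.27 for the kinase gene Braf (adjusted p = 0.717) and -0.16 for the MEK gene Map2k2 (adjusted p = 0.569).

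Of 11 measured targets and feedback genes of FGF-ERK signalling, 2 fell, the ETS factor gene Etv4 and the inhibitor gene Spry4, which passed at 3 probe sets. Etv4 went from 8.92 ± 0.19 to 7.47 ± 0.51 (SD, n = 3 each), with no overlap between the groups (2.74-fold lower, adjusted p = 0.0859). The Spry4 log2 fold changes were -1.54, -2.17 and -1.46 (adjusted p = 0.077, 0.0677 and 0.0897 from limma), and the groups did not overlap at any of the 3. For the other pathway genes, only the brightest probe set and any that passed were looked at. Spry4 probe sets that did not pass, if any, are therefore not counted here. Dusp6, the ERK phosphatase gene, had an average difference of 0.85 without passing (adjusted p = 0.617), with undifferentiated arrays from 7.90 to 10.55. The immediate early gene Fos had -0.75 (adjusted p = 0.731). At the brightest probe set the groups did not overlap for 4 of the 11 genes, 2 higher and 2 lower (36.4%, against 23.5% of all genes). The 2 higher ones, Spry1 (0.72, adjusted p = 0.142 from limma) and Egr1 (0.20, adjusted p = 0.55), did not pass. The share of 36.4% was the largest of the 6 lists of other pathway genes, and the other lists had 6.25% to 25%. Over all 59 other pathway genes, 12 were without overlap between the groups (20.3%, 7 higher and 5 lower). That share was below the 23.5% of all genes. None of these 59 genes passed without differentiating replicate 2, without differentiating replicate 3 or without undifferentiated replicate 3. Of the 59, 6 or 7 then had an unadjusted p under 0.05 from limma. With all 6 arrays 13 of the 59 had one, as had 3129 of all 18193 genes.

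**Figure D4:**
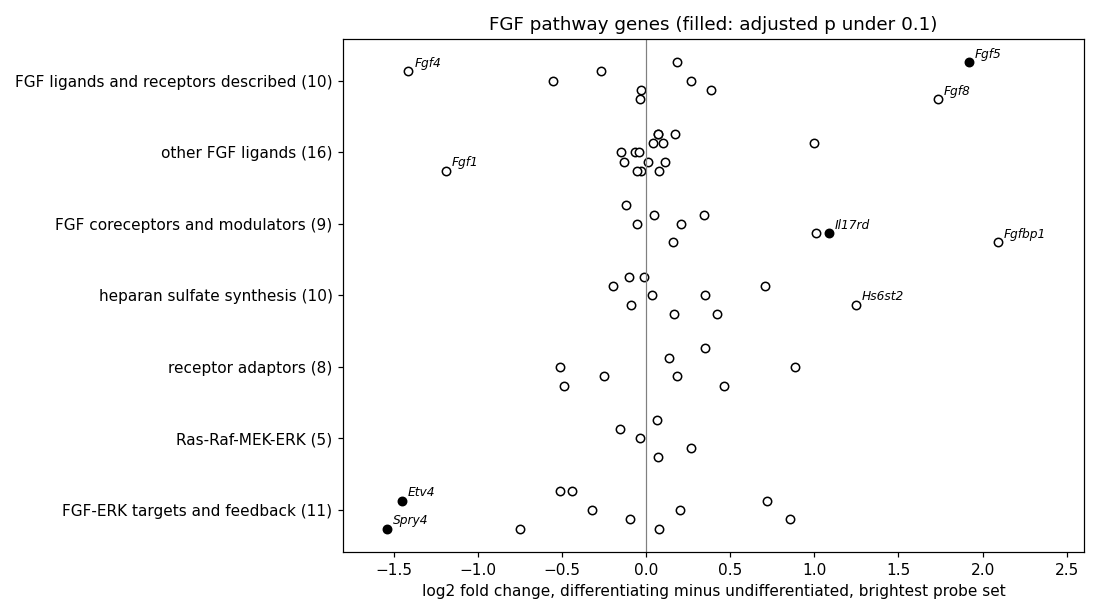
Log2 fold change at the brightest probe set (horizontal axis, differentiating minus undifferentiated) of the 10 FGF ligands and receptors and of 59 other genes of the pathway in 6 lists (rows, with the number of genes measured); 1 point is 1 gene, filled points passed at an adjusted p under 0.1, and the vertical offset only separates points. The filled genes are Fgf5 and Il17rd to the right of 0 and Etv4 and Spry4 to the left.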

How the data were processed

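E14TG2a RNA of 6 samples, 3 per group, was hybridised to Affymetrix mouse arrays. The authors made the deposited log2 values with RMA in the affy library (versions not given in the sources used here), 1 column per array, and they were used as deposited. The table held 45101 probe sets, of which 64 were controls of the array and were not tested. Of the 45037 tested, 34945 carried 1 symbol in the platform annotation, 932 several and 9160 none, and 34741 were looked up by gene ID in RefSeq (GRCm38.p6), which changed 0 symbols. Groups were compared with limma 3.58.1 in R 4.3.3 (lmFit, eBayes, no block, Benjamini-Hochberg over all probe sets). The threshold of 0.1, and the log2 fold change of 1 counted beside it, are those of the methods. A gene is represented by its brightest probe set (highest mean over 6 arrays) unless another is named. The limma fit was tested on simulated data with independent noise at each probe set, where small changes were recovered less often than large ones. Deviations of an array shared by many probe sets were not simulated. The number of arrays limits the precision.

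The members, gene lists and tests were chosen with earlier results of these data known. All probe sets of the members are counted. Of the other pathway genes, those that passed are named, with up to 2 more per list of largest change, and Fgf2, Spry1 and Egr1 besides. Of 67 other pathway genes, 8 were not matched to a single symbol and were not analysed here. The alternatives were a replicate block, the brighter probe sets only, inclusion of the controls, array weights, centring on the median, a repeated quantile normalization, a variance fitted with trend and robustly, omission of each array, other thresholds and the mean of a gene's probe sets.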

Additional observations from a re-analysis of the deposited data

How the results depend on the processing

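The direction of Fgf4, Fgf5, Fgf8 and Fgf17 was kept at each of their probe sets under every alternative run. For much of this no other outcome was possible. The block, the controls, the choice of brighter probe sets, the variance fit and the thresholds do not alter a log2 fold change. Where the groups do not overlap, omission of a single array cannot reverse it either. As reported, the counts were 3 of 24 FGF probe sets, 1 of 10 FGF genes and 3 of 59 other pathway genes. With array weights they were 7, 4 and 14, and at an adjusted p under 0.05 they were 1, 0 and 0. An unadjusted p under 0.05 was found for 7, 4 and 13, and for 6176 of all 45037 probe sets and 3129 of all 18193 genes. With the brighter probe sets only, 2 FGF genes passed, and 2 passed with the mean of all probe sets of a gene, Fgf5 (adjusted p = 0.0375) and Fgf8 (0.0882). Leaving out each array in turn gave 0 to 5 FGF probe sets, 0 to 2 FGF genes and 0 to 4 other pathway genes. Among these omissions, the largest count of FGF probe sets came without undifferentiated replicate 2, when 3 Fgf4 and 2 Fgf5 probe sets passed.

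The sources do not say whether same-numbered samples were paired, and no block was used in the main fit. Correlations of deviations between same-numbered samples were 0.205, -0.11 and 0.115, which with 3 arrays a group cannot exclude pairing. With the replicate block the counts were 3, 1 and 2, but the FGF gene that passed at its brightest probe set was then Fgf4 (lower) in place of Fgf5. The Fgf5 probe set 1426186_a_at then had an adjusted p of 0.101 and the Fgf4 probe set 1420086_x_at one of 0.0655. Only probe sets that did not pass changed sign. The log2 fold change of Fgf15 was 0.0032 after a second quantile normalization, 0.063 with array weights and -0.31 to 0.17 when single arrays were left out. Fgfr4 at 1427845_at was -0.014 after a second quantile normalization. Leaving out single arrays gave -0.031 to 0.31 for Fgfr2 at 1420847_a_at, -0.0089 to 0.45 at 1433489_s_at, -0.065 to 0.20 at 1443211_at, and -0.15 to 0.0767 for Fgfr3 at 1425796_a_at. The cause was not tested. Without detection calls, signal over background is unknown, which limits low values such as those of Fgf8, Fgf10 and, in undifferentiated cells, Fgf5 at 1438883_at.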
